A study of Mus musculus with 48 samples.

Results

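The genes described are the mouse ligands of the transforming growth factor β (TGF-β) family Tgfb1, Tgfb2, Tgfb3 and Inhba, and the genes for proteins that hold TGF-β latent, Lrrc32, Ltbp1, Ltbp2, Ltbp3 and Ltbp4. They were chosen by name and the rule used no measured value, but earlier results of these data were known when the choice was made. All 9 were found by gene symbol among the 49671 genes of the count table. RNA was sequenced from NMM, a mouse melanoma cell line with mutated NRAS, in 48 libraries of 12 groups. Each group had 1 library at 2, 6, 12 and 24 h of continuous stimulation. The groups were unstimulated cells, IFNγ at 0.01, 1 and 100 ng/ml, TNF at 0.1, 1 and 10 ng/ml, IFNγ at 100 ng/ml together with TNF at 10 ng/ml (the combination), 10 ng/ml TGF-β, 2 ng/ml lymphotoxin α1β2, and 5000 U/ml of IFNα1 or 6000 U/ml of IL-2. All groups are of this 1 line, and no genotype differs between them. The series title concerns cytokines that CD8+ T cells release in the tumour, and the question put to these genes is how each cytokine changed their transcripts in the tumour cell. A group holds 4 durations and no replicate at any of them, and the labels do not say that libraries came from separate cultures. P-values for a stimulus therefore measure only the spread of effects over durations, pooled over all 12 groups. Those for a change between durations measure only its spread over the 12 groups.

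TGF-β is secreted as an inactive complex. The propeptide, called the latency-associated peptide, stays wrapped around the mature dimer after the convertase furin has cut the chain, and a latent TGF-β binding protein (encoded by Ltbp1, Ltbp3 or Ltbp4) or the membrane protein GARP (encoded by Lrrc32) tethers the complex to matrix or to the cell surface, from which integrins and proteases release the active ligand. Ltbp2 encodes a matrix protein of the same family that does not bind latent TGF-β. Inhba encodes the βA subunit, whose dimer is activin A. Activin A signals through SMAD2 and SMAD3, as TGF-β does, but is not held latent in this way, and follistatin (Fst) traps it outside the cell. In melanoma, both ligands are studied for their effects on invasion and on T cells.

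The depth was 5612907 to 9663207 counts a library. A single count therefore equalled 0.105 to 0.179 CPM, the unit of level used here (the count relative to the total of its library, with TMM factors). Markers of the melanocyte lineage were nearly absent: of 10 genes only Mitf averaged at least 1 CPM, Dct and Mlana were at 0, and Sox10, Tyr and Tyrp1 had 2 counts each over all libraries. Of 8 markers of T and NK cells, 6 were at 0 in every library, and the list summed to at most 0.526 CPM. Of 6 macrophage markers only Cd68 averaged at least 1 CPM (list total 1.75 to 5.24 CPM). Of 6 fibroblast markers, the collagen gene Col3a1, Dcn and Pdgfra averaged at least 1 CPM, and of 5 endothelial markers Cdh5 did. RNA per cell and the number of cells cannot be told apart in such bulk libraries.

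Levels per length fell into 2 sets far apart. In unstimulated cells, in CPM per kilobase of exon (RPKM; mean ± SD over the 4 durations), Ltbp3 stood at 32.9 ± 5.24, Ltbp4 at 27.4 ± 1.04 and Ltbp1 at 25.4 ± 2.80. Tgfb3 stood at 17.3 ± 3.38, Inhba at 16.1 ± 5.35 and Tgfb1 at 11.1 ± 1.37. The remaining 3 genes were near the limit of detection, with Lrrc32 at 0.789 ± 0.525, Tgfb2 at 0.298 ± 0.187 and Ltbp2 at 0.0441 ± 0.0308. Of the neighbours in this order, Ltbp1 and Tgfb3, Tgfb1 and Lrrc32, and Tgfb2 and Ltbp2 differed by more than their summed SDs, and the others did not. Over all 48 libraries the medians followed nearly the same order, with Ltbp3 at 31.1, Ltbp1 at 28.4, Ltbp4 at 26.7, Inhba at 19.7, Tgfb3 at 17.1 and Tgfb1 at 10.8 RPKM. On GENCODE M21 exon lengths, the 3 well expressed Ltbp genes stood above Tgfb1 and Tgfb3 in unstimulated cells. For Inhba the place in this order is uncertain. Its deposited gene ends at 16027211, while the M21 gene that gave its length of 6390 bases ends at 16031621. A shorter counted length would raise its level per length, and the counted length is not given. Inhba ranged most widely among the 6 well detected genes, from 9.07 to 62.5 RPKM.

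**Figure D1:**
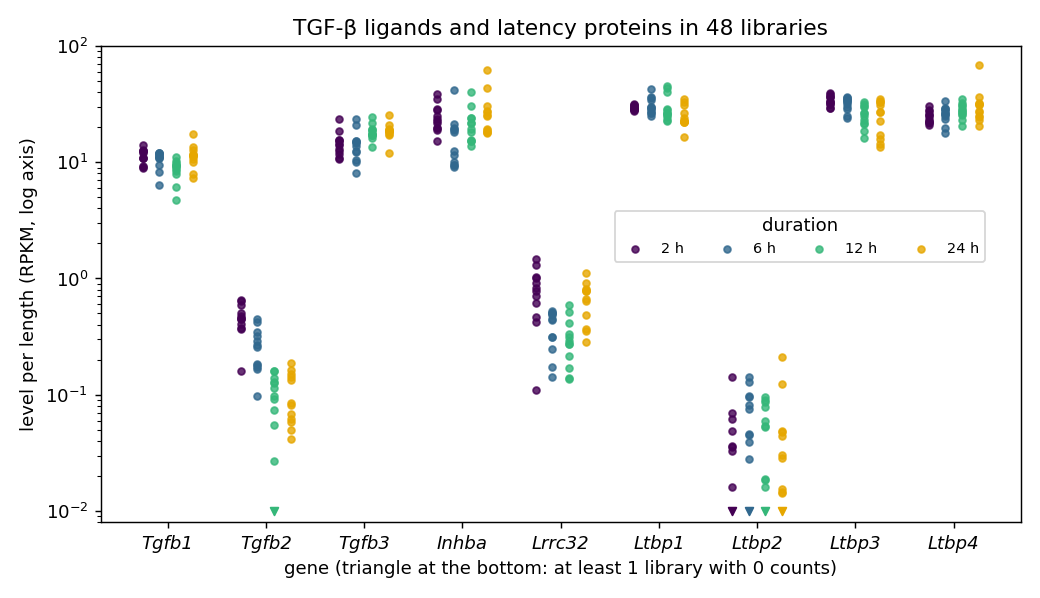
Level per length (RPKM, log axis) of each gene in 48 libraries, 1 point per library, coloured by duration; triangles at the bottom mark genes with at least 1 library at 0 counts. With GENCODE M21 exon lengths, medians of the 6 upper genes lie between 10.8 and 31.1 RPKM, those of Lrrc32, Tgfb2 and Ltbp2 at 0.484, 0.162 and 0.0418.

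The start regions of 4 genes called with IFNγ are shown because they moved in opposite directions, Inhba and Ltbp1 upwards and Tgfb1 and Ltbp3 downwards. Each runs from 250 bases before the RefSeq start site to 10 bases after it, on the GRCm38.p6 build, 5′ to 3′ on the gene's plus strand, and capitals mark motif matches.
Inhba (chr13:16011601-16011860): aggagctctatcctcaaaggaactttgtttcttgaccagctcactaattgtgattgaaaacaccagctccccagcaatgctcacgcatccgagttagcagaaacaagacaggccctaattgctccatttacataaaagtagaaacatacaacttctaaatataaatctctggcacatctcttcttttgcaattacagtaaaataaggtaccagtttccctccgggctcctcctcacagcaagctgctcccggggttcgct
Ltbp1, the upstream of its 2 listed starts (chr17:75005279-75005538): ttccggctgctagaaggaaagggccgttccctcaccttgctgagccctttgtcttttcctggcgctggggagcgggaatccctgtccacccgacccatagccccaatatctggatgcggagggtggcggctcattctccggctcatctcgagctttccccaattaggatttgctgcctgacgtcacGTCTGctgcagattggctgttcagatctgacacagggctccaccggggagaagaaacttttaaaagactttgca
Tgfb1 (chr7:25686752-25687011): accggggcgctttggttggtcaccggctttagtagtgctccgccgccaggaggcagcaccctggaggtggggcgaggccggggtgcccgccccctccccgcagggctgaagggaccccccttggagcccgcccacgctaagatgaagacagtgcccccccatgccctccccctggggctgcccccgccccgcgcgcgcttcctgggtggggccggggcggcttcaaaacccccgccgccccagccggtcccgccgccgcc
Ltbp3 (chr19:5740650-5740909): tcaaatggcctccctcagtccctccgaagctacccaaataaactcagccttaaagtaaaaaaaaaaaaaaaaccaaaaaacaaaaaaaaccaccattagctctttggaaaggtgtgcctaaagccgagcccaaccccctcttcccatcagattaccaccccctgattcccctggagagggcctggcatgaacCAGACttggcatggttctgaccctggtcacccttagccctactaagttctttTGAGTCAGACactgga
Windows were searched over 300 bases on both strands for 5 motifs: AP-1 (TGANTCA, in 7.81% of 32851 RefSeq windows), the interferon-gamma activated sequence (GAS, TTCNNNGAA, 8.3%), the SMAD box (CAGAC, 49.6%), the interferon-stimulated response element (ISRE, 3.44%) and the κB consensus (4.51%). In Ltbp3 an AP-1 match at -6 from the start overlaps a SMAD box at -1, and a further SMAD box lies at -58. The first Ltbp1 window holds 1 SMAD box, on the opposite strand at -64 (gtctg). The Inhba and Tgfb1 windows hold no match to any of the 5, which says only that these letters are not in those 300 bases. The Tgfb1 window is 77% G and C, against 47.7% for Inhba, 48% for Ltbp3 and 52.7% at the median of all windows. Of the 9 genes, 7 have a window in this table.

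Of the 9 genes, 8 passed the filter on low counts and Ltbp2 did not. Effects are log2 changes against unstimulated cells, as a mean over the 4 durations ± an approximate standard error, and a gene was called at a Benjamini-Hochberg adjusted p under 0.05 over all 12203 tested genes in edgeR's quasi-likelihood test. The combination had 4 of the 8 called, in a comparison where 42% of all tested genes were called, which is a share near that of the 8. IFNγ had 4 of 8 called at 100 ng/ml (background 22.1%) and 5 of 8 at 1 ng/ml (15%). TNF had 3 of 8 at 10 ng/ml (17.1%) and 1 of 8, Inhba, at 1 ng/ml (2.72%). TGF-β had 2 of 8 (8.28%). No gene of the 8 was called with IFNα1 (9.27%), where Tgfb3 alone had an unadjusted p under 0.05 (0.38 ± 0.13, adjusted p = 0.0568) and DESeq2 called it. TNF at 0.1 ng/ml called none (0.0164% of all genes), none of the 8 had an unadjusted p under 0.05, and DESeq2 called none of them. IFNγ at 0.01 ng/ml, lymphotoxin α1β2 and IL-2 called 0 genes of all those tested (backgrounds 0%, 0% and 0%, with 229, 195 and 152 genes at an unadjusted p under 0.05), and DESeq2 called 0 as well. Of the 8, only Tgfb2 with IFNγ at 0.01 ng/ml was under 0.05 unadjusted (-1.03 ± 0.37, adjusted p = 1).

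**Figure D2:**
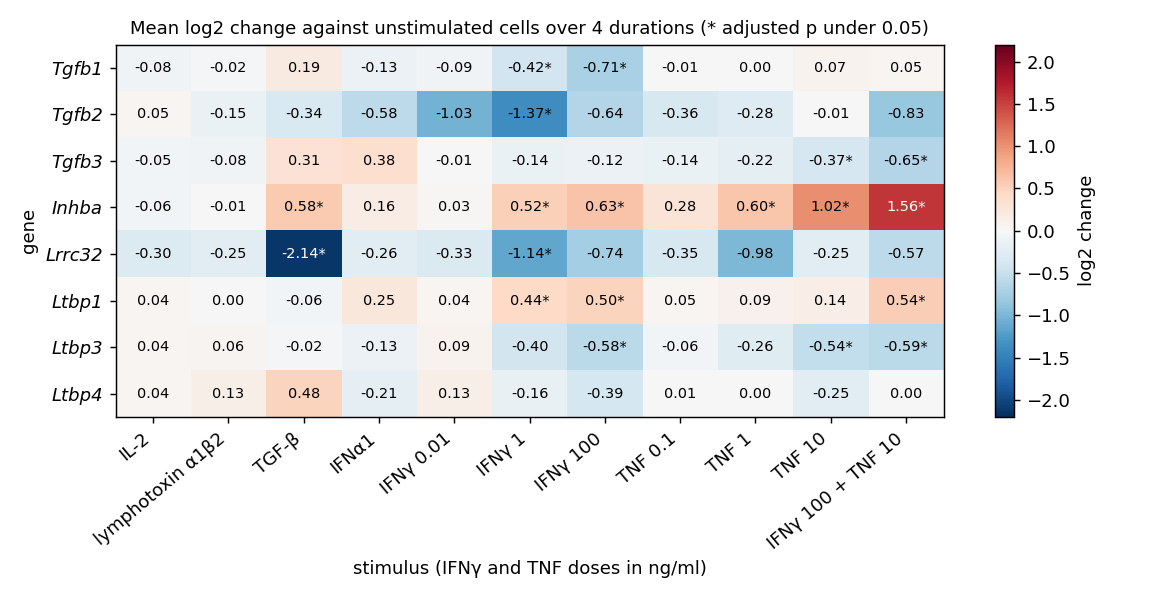
Log2 change against unstimulated cells (mean over 4 durations) of the 8 tested genes, by stimulus, with red for higher, blue for lower and an asterisk for an adjusted p under 0.05. Inhba is the row with the most called increases, from 0.52 to 1.56, and Lrrc32 with TGF-β is the lowest value at -2.14.

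Inhba, on chromosome 13 (16011851 to 16027211 in GRCm38, as deposited), was the gene most often called: it rose with TGF-β, with IFNγ at 1 and 100 ng/ml, with TNF at 1 and 10 ng/ml and with the combination. In unstimulated cells it had 139, 58.0, 98.1 and 115 CPM at 2, 6, 12 and 24 h, with a dip at 6 h. With the combination it had 247, 267, 256 and 399.6 CPM, all above every unstimulated library, and the change was 1.56 ± 0.16, adjusted p = 1.05e-09. TNF at 10 ng/ml gave 222, 136, 196 and 276 CPM, higher than unstimulated cells at each duration although the ranges overlap (1.02 ± 0.16, adjusted p = 2.31e-05). IFNγ at 100 ng/ml gave 161, 115, 153 and 195 CPM, also higher at each duration with overlapping ranges (0.63 ± 0.16, adjusted p = 0.00455). TGF-β gave 145, 122, 154 and 172 CPM (0.58 ± 0.16, adjusted p = 0.0183). In these values the 6 h dip of unstimulated cells is smaller with TGF-β and absent with the combination.

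By dose, the change of Inhba was 0.28 ± 0.16 at 0.1 ng/ml TNF (adjusted p = 0.994), 0.60 ± 0.16 at 1 ng/ml (adjusted p = 0.0327) and 1.02 at 10 ng/ml. It was 0.03 ± 0.16 at 0.01 ng/ml IFNγ (adjusted p = 1), 0.52 ± 0.16 at 1 ng/ml (adjusted p = 0.0275) and 0.63 at 100 ng/ml. Steps between doses were not tested. IFNα1 gave 97.7, 60.5, 138 and 163 CPM, below or near the unstimulated level at 2 and 6 h and above it at 12 and 24 h (0.16 ± 0.16, adjusted p = 0.622). Within the 12 h and 24 h libraries alone it was called with IFNα1 (0.51 ± 0.11, adjusted p = 0.00447).

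For Inhba the combination exceeded each cytokine alone. It was higher by 0.93 ± 0.16 than with IFNγ alone (adjusted p = 6.38e-05), where 3 of these 8 genes and 13.9% of all genes were called. It was higher by 0.54 ± 0.16 than with TNF alone (adjusted p = 0.0167), where 2 of the 8 and 14% of all genes were called. The joint effect departed from additivity, the summed log2 effects of IFNγ and TNF, by -0.09 ± 0.22, adjusted p = 0.91. In that test of non-additivity none of the 8 and 0.0819% of all genes were called, with none of the 8 by DESeq2 either, and 3 of the 8 had an unadjusted p under 0.05. The rise with the combination was called under all 12 alternative settings. The rise with TNF at 10 ng/ml lost its call within the 2 h and 6 h libraries alone, that with IFNγ at 100 ng/ml also without the 12 h libraries or the duration term, and those with TGF-β, IFNγ at 1 ng/ml and TNF at 1 ng/ml also without the 6 h or 24 h ones or with the compared groups alone. Against TNF alone, the call was lost without the 6 h, 12 h or 24 h libraries, and against IFNγ alone within the 2 h and 6 h libraries.

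**Figure D3:**
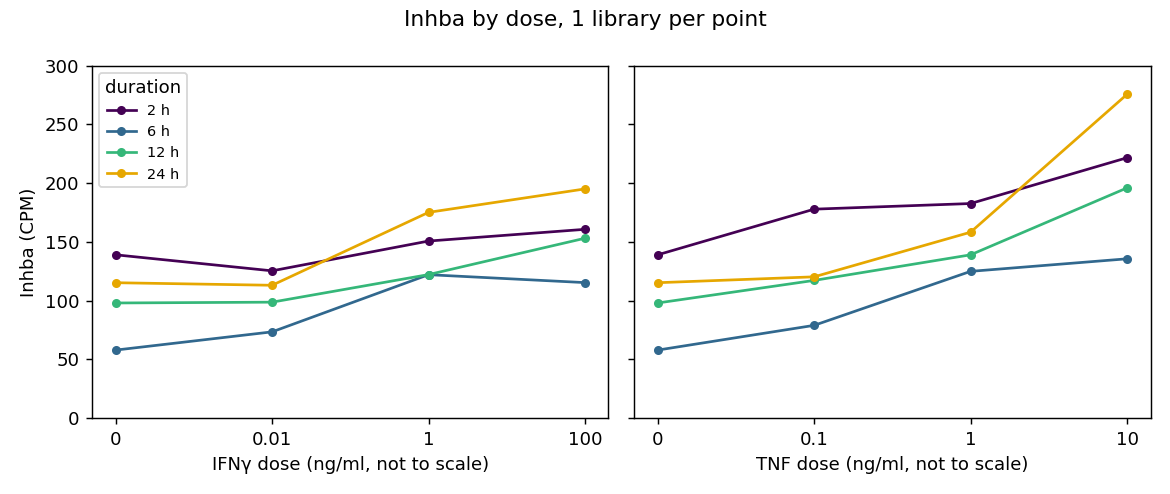
Inhba (CPM) by dose of IFNγ (left) and TNF (right), with 0 for unstimulated cells, 1 line per duration and 1 library per point. At 10 ng/ml TNF the 4 libraries reach 222, 136, 196 and 276 CPM, against 139, 58.0, 98.1 and 115 in unstimulated cells.

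Tgfb1 encodes the TGF-β isoform most studied in immune regulation, and lies on chromosome 7 (25687002 to 25705077). It fell with IFNγ, and not with IFNγ and TNF together. Unstimulated cells had 63.1, 59.6, 47.6 and 53.3 CPM and IFNγ at 100 ng/ml gave 45.3, 32.2, 23.7 and 36.6 CPM, with all 4 libraries below every unstimulated one (-0.71 ± 0.13, adjusted p = 0.000114). At 1 ng/ml the 4 libraries had 54.9, 41.4, 31.2 and 40.1 CPM (-0.42 ± 0.13, adjusted p = 0.0216), and at 0.01 ng/ml the change was -0.09 ± 0.13, adjusted p = 1. With the combination the levels were 63.2, 60.3, 43.8 and 64.6 CPM, overlapping those of unstimulated cells (0.05 ± 0.12, adjusted p = 0.79). TNF alone at 10 ng/ml gave 63.8, 55.6, 55.5 and 59.1 CPM (0.07 ± 0.13, adjusted p = 0.754).

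Tested directly, Tgfb1 was higher with the combination than with IFNγ alone (0.75 ± 0.13, adjusted p = 6.01e-05). The departure from additivity was 0.68 ± 0.18, adjusted p = 0.167, which is not a call, and became one without the 2 h libraries (0.77 ± 0.17, adjusted p = 0.0381). With TGF-β itself Tgfb1 had 60.96, 60.1, 47.9 and 88.6 CPM, and the 24 h library was the highest of all 48, but neither the mean change (0.19 ± 0.12, adjusted p = 0.452) nor the slope with time (0.19 ± 0.07, adjusted p = 0.244) was called. The fall with IFNγ at 100 ng/ml and the difference from the combination were called under all alternatives run. The fall at 1 ng/ml lost its call without the 6 h, 12 h or 24 h libraries, with IL-2 libraries as the reference and in 4 further settings.

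Tgfb3, the isoform known for its part in palate fusion, lies on chromosome 12 (86056744 to 86079041, as deposited). It fell with the combination and with TNF at 10 ng/ml. Unstimulated cells had 47.9, 51.6, 73.5 and 61.3 CPM, the combination 36.4, 27.2, 45.7 and 40.4 CPM, with all 4 libraries below every unstimulated one (-0.65 ± 0.13, adjusted p = 0.000145). TNF at 10 ng/ml gave 36.03, 33.8, 54.6 and 57.9 CPM, lower at each duration with overlapping ranges (-0.37 ± 0.13, adjusted p = 0.0449). IFNγ at 100 ng/ml gave 43.8, 49.1, 57.5 and 64.2 CPM (-0.12 ± 0.13, adjusted p = 0.524), and the combination was lower than IFNγ alone (-0.53 ± 0.13, adjusted p = 0.00603). Against TNF alone the difference was -0.28 ± 0.14, adjusted p = 0.177.

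With TGF-β, Tgfb3 had 80.4, 79.0, 64.5 and 58.6 CPM. The 2 h and 6 h libraries were above all unstimulated ones, and those of 12 h and 24 h were below the unstimulated libraries of the same duration. The mean over durations was not called (0.31 ± 0.13, adjusted p = 0.148), the slope with log2 hours against that of unstimulated cells was (-0.27 ± 0.07, adjusted p = 0.0447, in a test with 1.49% of all genes called), and within the 2 h and 6 h libraries alone the gene was called as higher (0.67 ± 0.12, adjusted p = 0.00179). IFNα1 gave 62.9, 70.2, 83.0 and 86.4 CPM, higher at each duration (0.38 ± 0.13, adjusted p = 0.0568), and was called with DESeq2 size factors, with IL-2 as the reference and with the compared groups alone (0.40 ± 0.07, adjusted p = 0.00728). The fall with the combination was called under all 12 alternatives, that against IFNγ alone lost its call without the 6 h libraries or the duration term, that with TNF lost it in 8 of 12, including without the 2 h, 6 h or 12 h libraries, and the slope lost it in 5 of 8, including without the 2 h, 12 h or 24 h ones. In M21 exons 163 bases of Tgfb3 overlap the opposite-strand gene Gm37804, which had at most 4 counts in a library. A further 257 overlap the opposite-strand gene Gm48008, which is not among the genes of the count table, so its counts could not be examined.

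**Figure D4:**
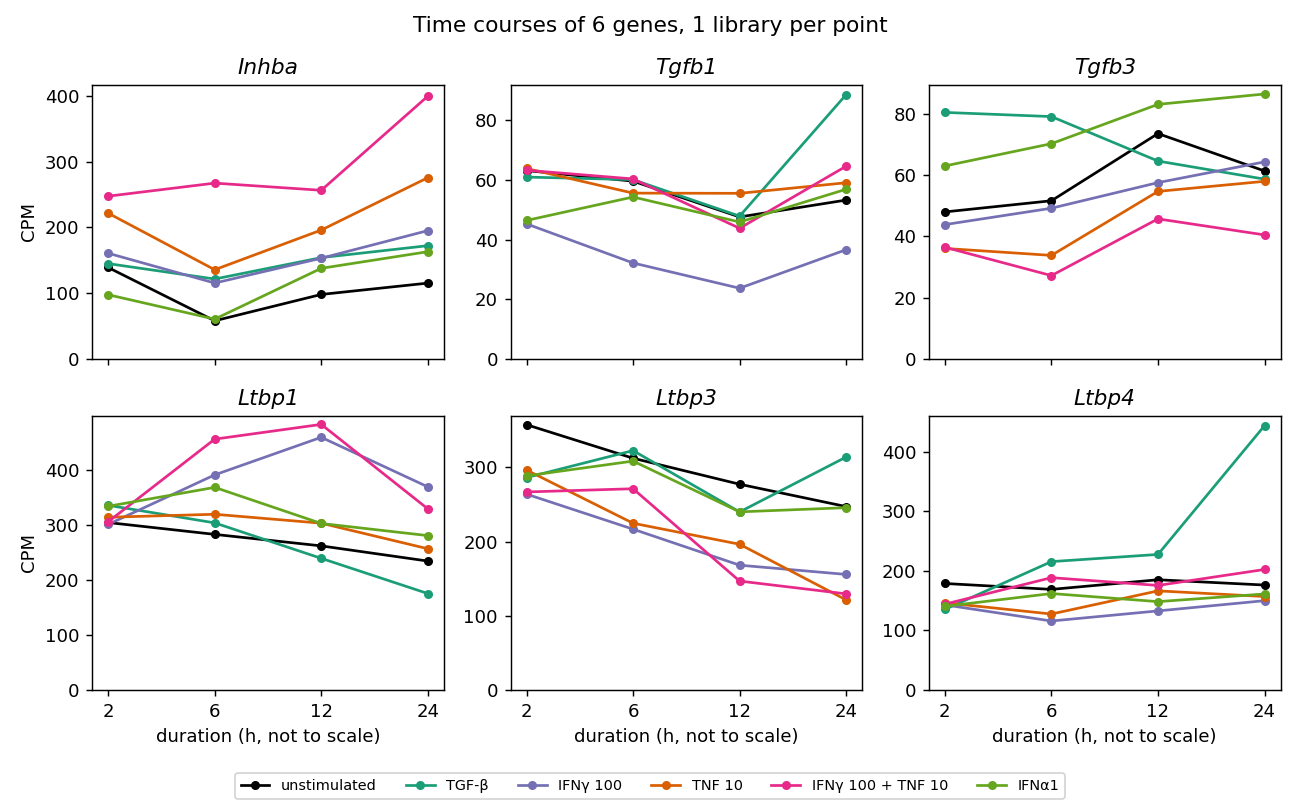
Time courses (CPM, 1 library per point, hours not to scale) of 6 genes in unstimulated cells and with 5 stimuli. Inhba with the combination lies above all unstimulated points, Tgfb1 with IFNγ lies below them, and Ltbp4 with TGF-β reaches 444 CPM at 24 h.

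Tgfb2, on chromosome 1 (186622792 to 186705989), was hardly expressed, with 0 to 30 counts in a library and 477 in all. Unstimulated cells had 19, 21, 5 and 6 counts, or 2.73, 2.59, 0.804 and 0.777 CPM. The median over the 12 groups was 2.62 CPM at 2 h, 1.52 at 6 h, 0.613 at 12 h and 0.483 at 24 h, and the gene fell from 2 h to 24 h (log2 change -2.15 ± 0.21, adjusted p = 7.14e-12). With IFNγ at 1 ng/ml it had 0.931, 0.560, 0.318 and 0.824 CPM and was called as lower (-1.37 ± 0.39, adjusted p = 0.0148), while at 100 ng/ml it had 2.59, 0.970, 0.568 and 0.397 CPM and was not (-0.64 ± 0.35, adjusted p = 0.19). The call at 1 ng/ml was lost without the 2 h, 6 h or 12 h libraries, the counts behind it being 7, 4, 2 and 6. In M21 exons 124 bases of Tgfb2 overlap the antisense gene Gm29491, which was at 0 in every library.

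Lrrc32, on chromosome 7 (98489283 to 98502181), encodes GARP, which presents latent TGF-β on regulatory T cells and platelets. It fell with TGF-β. Unstimulated cells had 48, 19, 8 and 33 counts (6.89, 2.34, 1.29 and 4.28 CPM) and TGF-β gave 4, 5, 5 and 10 counts (0.518, 0.666, 0.656 and 1.34 CPM), lower at each duration, with the 24 h library of TGF-β just above the 12 h unstimulated one. The change was -2.14 ± 0.38, adjusted p = 8.55e-05, called under all 12 alternatives, with values from -2.88 to -1.46. IFNγ at 1 ng/ml gave 1.99, 2.10, 0.636 and 1.65 CPM (-1.14 ± 0.34, adjusted p = 0.0173) and at 100 ng/ml 3.33, 2.26, 1.28 and 1.72 CPM (-0.74 ± 0.32, adjusted p = 0.0907). The call at 1 ng/ml was lost without the 2 h, 12 h or 24 h libraries and with IL-2 libraries as the reference. It was also lost without the duration term and within the 2 h and 6 h libraries alone. Unstimulated cells had the highest mean of the 12 groups (3.70 CPM). Changes with IL-2 (-0.30 ± 0.31), lymphotoxin α1β2 (-0.25 ± 0.30) and IFNγ at 0.01 ng/ml (-0.33 ± 0.30) were also negative, though not called. Of 5 platelet markers only Itga2b averaged at least 1 CPM, and Foxp3, the defining factor of regulatory T cells, had 44 counts over all libraries and at most 0.494 CPM in one.

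**Figure D5:**
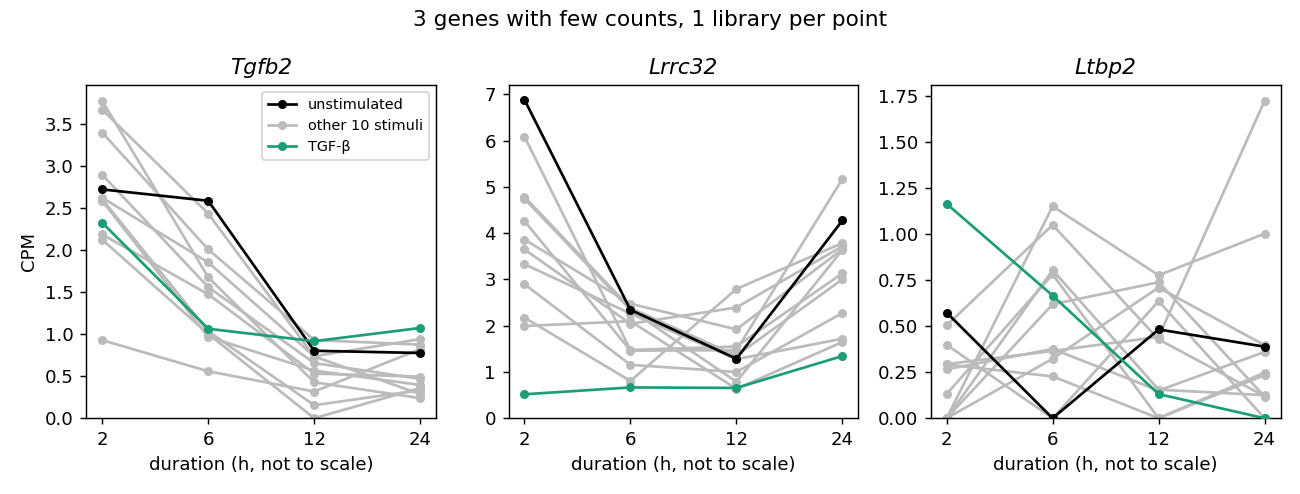
Tgfb2, Lrrc32 and Ltbp2 (CPM, 1 library per point, hours not to scale), with unstimulated cells in black, TGF-β in green and the other 10 stimuli in grey. Lrrc32 with TGF-β stays at 0.518 to 1.34 CPM, and Tgfb2 declines in all groups between 2 h and 12 h.

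Ltbp1, on chromosome 17 (75005568 to 75392512), rose with IFNγ at both upper doses and with the combination. Unstimulated cells had 305, 284, 263 and 235 CPM, declining with time. IFNγ at 100 ng/ml gave 302, 392, 460.5 and 370.1 CPM, level with unstimulated cells at 2 h and above all of them from 6 h on (0.50 ± 0.13, adjusted p = 0.00412). The combination gave 307, 457, 484 and 330.1 CPM, above every unstimulated library, although at 2 h by little (0.54 ± 0.13, adjusted p = 0.000761). At 1 ng/ml IFNγ the levels were 304, 379.6, 429 and 352 CPM (0.44 ± 0.13, adjusted p = 0.0152).

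TNF at 10 ng/ml left Ltbp1 at 315, 320.2, 304 and 257 CPM (0.14 ± 0.13, adjusted p = 0.493), and the combination was higher than TNF alone (0.40 ± 0.13, adjusted p = 0.0285). The slope with IFNγ at 100 ng/ml was higher than the declining one of unstimulated cells by 0.21 ± 0.06 (adjusted p = 0.0395, background 6.9%). This difference lost its call without the 2 h, 6 h or 12 h libraries or the filter. With TGF-β the levels were 337, 304, 239.8 and 176 CPM, with the 24 h library the lowest of all 48 (-0.06 ± 0.13, adjusted p = 0.885), and within the 12 h and 24 h libraries alone the gene was called as lower (-0.27 ± 0.09, adjusted p = 0.0463). Within the 2 h and 6 h libraries alone no rise of Ltbp1 was called; that with IFNγ at 100 ng/ml was also lost without the 12 h or 24 h libraries, and those at 1 ng/ml and against TNF alone without the 6 h, 12 h or 24 h ones.

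Ltbp3, on chromosome 19 (5740904 to 5758532), fell with IFNγ, with TNF and with the combination. Its product is needed for the secretion of latent TGF-β in bone. Unstimulated cells had 358, 312, 277 and 247 CPM and IFNγ at 100 ng/ml gave 264, 217, 168 and 156 CPM, lower at each duration (-0.58 ± 0.15, adjusted p = 0.00481). TNF at 10 ng/ml gave 297, 225, 196 and 121 CPM, with the lowest value of all 48 libraries at 24 h (-0.54 ± 0.15, adjusted p = 0.0115). The combination gave 267, 271, 147 and 129.5 CPM (-0.59 ± 0.15, adjusted p = 0.00182). It differed from IFNγ alone by -0.01 ± 0.15, adjusted p = 0.989, and from TNF alone by -0.05 ± 0.15, adjusted p = 0.865, neither of which is a call. With IFNγ at 1 ng/ml the change was -0.40 ± 0.15, adjusted p = 0.0691, and was called under 4 alternatives.

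All these falls lost their call without the 12 h libraries, that with TNF also without those of 6 h, and those with TNF and the combination within the 2 h and 6 h libraries alone. Whether the counting used strand is not given, so the Ltbp3 values may include antisense reads. The slopes with TNF (-0.18 ± 0.07, adjusted p = 0.233) and the combination (-0.18 ± 0.07, adjusted p = 0.101) were not called, in tests where 2.43% and 17.4% of all genes and none of these 8 were called by edgeR. Ltbp3 in both, and Lrrc32 and Ltbp1 with the combination, had an unadjusted p under 0.05, and DESeq2 gave no further call among the 8. With IL-2 libraries as the reference both slopes of Ltbp3 were called, with TNF at -0.29 ± 0.07 (adjusted p = 0.0311) and with the combination at -0.28 ± 0.07 (adjusted p = 0.00802), as was that of Ltbp1 with the combination (0.19 ± 0.06, adjusted p = 0.0442). With the combination, the slope of Ltbp1 was also called without the 24 h libraries (0.34 ± 0.05, adjusted p = 0.000504) and that of Inhba without the 6 h ones (0.26 ± 0.05, adjusted p = 0.000477).

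Ltbp4, on chromosome 7 (27305136 to 27337692), was nearly level in unstimulated cells, at 179, 169, 185 and 176 CPM. With TGF-β it had 135, 216, 228 and 444 CPM, which is below unstimulated cells at 2 h and above all of them from 6 h on. The mean change missed the threshold (0.48 ± 0.16, adjusted p = 0.0532), and the slope was steeper than in unstimulated cells by 0.44 ± 0.07 log2 units per doubling of time (adjusted p = 0.000477). Without the 24 h libraries, or without those of 2 h, the slope was not called, and over the 8 alternatives it ran from 0.29 to 0.50. Fewer genes of all were called there too: 0.14% without the 24 h libraries and 0.327% without those of 2 h, against 1.49%. The lost calls therefore do not show which library decided the slope. Without the 2 h libraries the mean change was called (0.72 ± 0.15, adjusted p = 0.00215), as it was by DESeq2 (0.48 ± 0.15, adjusted p = 0.0244).

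Levels of Ltbp4 with IFNγ at 100 ng/ml were 143, 116, 133 and 150.0 CPM, with TNF at 10 ng/ml 146, 128, 167 and 157 CPM and with IFNα1 141, 162, 148 and 161 CPM. All 4 libraries of each lay below every unstimulated one, but none of the changes was called (-0.39 ± 0.16, adjusted p = 0.0764; -0.25 ± 0.16, adjusted p = 0.297; -0.21 ± 0.16, adjusted p = 0.476). The combination gave 144, 189, 176 and 203 CPM, spanning the unstimulated range (-0.00 ± 0.16, adjusted p = 0.987). With the compared groups alone, those with IFNγ (-0.39 ± 0.07, adjusted p = 0.00901) and with TNF (-0.25 ± 0.06, adjusted p = 0.0280) were called. That with IFNγ was also called without the 24 h libraries (-0.43 ± 0.13, adjusted p = 0.0237). The combination was higher than IFNγ alone by 0.39 ± 0.16 (adjusted p = 0.105), not a call. It became one without the 2 h libraries (0.51 ± 0.16, adjusted p = 0.0230) and with the compared groups alone (0.39 ± 0.10, adjusted p = 0.0410).

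Ltbp2, on chromosome 12 (84783212 to 84876532), had 0 to 12 counts in a library, 147 in all, and none in 10 libraries. A library with no count allows up to 3 counts, or 0.315 to 0.537 CPM. Unstimulated cells had 4, 0, 3 and 3 counts and TGF-β 9, 5, 1 and 0 counts, more than in unstimulated cells at 2 and 6 h and fewer at 12 and 24 h. The difference was not tested, since the gene did not pass the filter. In M21 exons 764 bases of Ltbp2 overlap the antisense gene D030025P21Rik.

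Between 2 h and 24 h 5 of the 8 genes changed over all groups, in a comparison where 67.3% of all genes were called. Tgfb3 (0.37 ± 0.08, adjusted p = 5.39e-05) and Ltbp4 (0.30 ± 0.09, adjusted p = 0.0044) rose, and Ltbp1 (-0.28 ± 0.07, adjusted p = 0.00108), Ltbp3 (-0.50 ± 0.09, adjusted p = 6.26e-06) and Tgfb2 fell, the last as given above. These 5 calls held in the 5 alternatives that give this contrast. The 2 h and 6 h libraries carry 24 index sequences and those of 12 h and 24 h the same 24 again. Whether the pool or run also differed between these sets is not given, and such a difference cannot be told apart from the step between 6 h and 12 h, which the contrast of 24 h with 2 h crosses. Within the first set, from 2 h to 6 h, Inhba (-0.66 ± 0.09, adjusted p = 2.51e-07), Lrrc32 (-1.05 ± 0.19, adjusted p = 8.88e-06) and Tgfb2 (-0.81 ± 0.17, adjusted p = 0.000122) fell (3 of 8, background 57.2%). Within the second, from 12 h to 24 h, Tgfb1 (0.39 ± 0.07, adjusted p = 7.13e-05), Inhba (0.32 ± 0.09, adjusted p = 0.00712) and Lrrc32 (1.11 ± 0.20, adjusted p = 4.9e-05) rose and Ltbp1 (-0.25 ± 0.07, adjusted p = 0.00666) fell (4 of 8, background 32.1%). Averaged over the 12 groups, Inhba and Lrrc32 therefore fell early and rose late, though not every group followed this course. Neither had a call between 2 h and 24 h (0.10 ± 0.09, adjusted p = 0.364, and -0.25 ± 0.17, adjusted p = 0.196).

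Other genes of the pathway were grouped into lists by role. Beside the counts with TGF-β, 5.02% of all tested genes rose and 3.25% fell. Of 17 tested response genes 11 rose and 3 fell, with a median log2 change of 0.95 against -0.01 over all tested genes. Id2, a target of BMP signalling, was lower (-1.49 ± 0.14). Of 18 SMADs and intracellular regulators 8 rose and none fell (median 0.11), including the feedback inhibitors Smad7 (1.32 ± 0.11) and Pmepa1 (1.50 ± 0.17). Smad7, Pmepa1 and Skil are in both of these lists, so the counts of the response genes and of the regulators are not independent. Of 20 genes for processing, storage and activation of latent TGF-β, 7 rose and 2 fell (median 0.17): Thbs1, an activator of the latent form, rose by 0.99 ± 0.21, and Fbn2, a fibrillin, was lower (-1.18 ± 0.24). Of 11 receptors 2 rose and 1 fell (median 0.00), the co-receptor Tgfbr3 being the lower one (-0.66 ± 0.13). Of 6 other ligands of the family, only Bmp4 was called, as lower (-1.55 ± 0.11; median -0.55).

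The extracellular antagonists of activin changed beside Inhba. Fst, which encodes follistatin, had 107, 87.8, 40.4 and 35.2 CPM in unstimulated cells, 524, 563, 297 and 254 CPM with IFNγ at 100 ng/ml and 598, 756, 293 and 281 CPM with the combination, above all unstimulated libraries (2.69 ± 0.17, adjusted p = 1.7e-14; 2.88 ± 0.17, adjusted p = 7.77e-16). With TGF-β it had 58.2, 30.8, 9.83 and 8.20 CPM, lower at each duration (-1.45 ± 0.18, adjusted p = 3.6e-07). Fstl3, a relative of follistatin that also binds activin, had 7.46, 7.90, 6.75 and 4.66 CPM in unstimulated cells and 29.2, 30.4, 11.3 and 13.2 CPM with TGF-β (1.63 ± 0.22, adjusted p = 7.77e-07). Thus TGF-β, which raised Inhba, lowered one antagonist and raised the other. Of the 5 tested activin and inhibin partners, 3 rose with IFNγ at 100 ng/ml and with the combination and none fell (medians 0.74 and 0.78), among them the subunit gene Inhbb (0.74 ± 0.27 and 0.78 ± 0.26). Of all tested genes, 12.8% rose and 9.3% fell with this IFNγ dose, and 20.9% rose and 21.2% fell with the combination. With TNF at 10 ng/ml 1 of the 5 rose, Fstl1 (0.42 ± 0.14), where 9.83% of all tested genes rose and 7.3% fell. A count of 1 among so few genes says nothing particular of the list.

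With the combination 20.9% of all tested genes rose and 21.2% fell, and counts near these shares say nothing particular of a list. Of 20 genes for processing, storage and activation 5 rose and 7 fell (median -0.26 against -0.03 over all genes). Furin, the convertase that cuts the TGF-β precursor, rose by 0.77 ± 0.09, and Tgm2, a transglutaminase that links latent complexes to matrix, by 3.29 ± 0.40. Emilin1, a matrix protein that restrains that cut, was lower (-0.71 ± 0.14). Itgb6, the β6 integrin chain that activates latent TGF-β, had 0, 0, 1 and 0 counts in unstimulated cells and 10, 13, 7 and 14 with the combination. Outside the combination it reached 10 counts only with IFNα1 at 2 h (11) and with IFNγ at 100 ng/ml at 12 h (13). It thus passed the filter mainly through the group where it is high, so its call, among the 5 above, adds no support. Of 11 receptors 3 rose and 3 fell (median -0.07), with the co-receptor Eng at 1.03 ± 0.15 and the kinase receptor Tgfbr1 at -0.79 ± 0.10. Of 17 response genes 5 rose and 4 fell (median -0.03), and of 18 SMADs and regulators 6 rose and 3 fell.

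With IFNγ at 100 ng/ml 2 of 20 processing genes rose and 5 fell, where 12.8% of all tested genes rose and 9.3% fell. With TNF at 10 ng/ml 3 of the 20 rose and 4 fell, where 9.83% of all rose and 7.3% fell. Itgb5, the β5 integrin chain, was lower with each (-0.61 ± 0.13 and -0.49 ± 0.13), and Itgb3, the β3 chain, rose with TNF (0.93 ± 0.16). Of the response genes, 2 of 17 rose and 1 fell with IFNγ, a share below that of all genes, and 4 rose and 5 fell with TNF. Among the other ligands, Bmp4 fell with TNF (-0.99 ± 0.11).

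Markers of other cell types moved in some of the same groups. Cdh5 rose with TGF-β (1.25 ± 0.26), TNF at 10 ng/ml (0.88 ± 0.27) and the combination (0.93 ± 0.26), and the 5 endothelial markers summed to 3.58 to 6.48 CPM in unstimulated cells, 5.57 to 26.8 with TGF-β, 5.00 to 18.5 with TNF and 4.64 to 14.5 with the combination. The other 4 endothelial markers were near 0, the highest being Pecam1 with 39 counts over all libraries. Fibroblast markers summed to 321 to 497 CPM in unstimulated cells, 277 to 314 with TGF-β, 183 to 360.1 with IFNγ at 100 ng/ml, 198 to 324 with TNF and 66.2 to 336 with the combination. Col3a1 fell with TNF and the combination (-0.89 ± 0.31 and -1.38 ± 0.32) and Pdgfra rose with TNF (0.74 ± 0.18), while Lum, Thy1 and Dpt had 5 to 13 counts over all libraries. The part of these genes in the changes of the ligands and latency genes was not tested.

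For each member of at least 5 CPM on average, all tested genes were ranked by Pearson's r of log2 CPM over the 48 libraries. The mean of each duration was first taken out. Without that step, r for the genes named below ran from 0.42 (Arhgef40) to 0.93 (Tmco4). The libraries share stimuli, so r is a description. Inhba was most like Gsap (0.91), Smurf1 (0.91) and Abtb2 (0.90), Tgfb1 most like Marcksl1 (0.83), Arhgef40 (0.78) and Col18a1 (0.78), and Tgfb3 most like Tfdp2, Pxylp1 and Mylip (each 0.76). Ltbp1 was most like Tmco4 (0.92), Melk (0.91) and Nr3c1 (0.91), Ltbp3 most like Csnk1g2 (0.92), Aldh2 (0.92) and Pik3r2 (0.91), and Ltbp4 most like Piezo1 (0.88), Ptp4a3 (0.84) and Cotl1 (0.84).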

How the data were processed

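The authors deposited raw read counts per Ensembl gene, with no normalisation. Per the submitters' processing notes reads were aligned with HISAT to GRCm38, and per the labels' protocols libraries were made with a stranded poly(A) kit; for the counting tool, annotation release and strand setting, these are not given in those sources. Doses follow the sample titles, because for the lowest TNF and IFNγ doses (0.1 and 0.01 ng/ml) another label field holds 1. Tests used edgeR 4.0.16, with limma 3.58.1, under R 4.3.3. The edgeR filter (minimum count 10, minimum total 15) kept 12203 genes, scaled with TMM. A robust quasi-likelihood model held 1 term per stimulus and per duration (33 residual degrees of freedom), and a second added a slope on log2 hours per stimulus (22). The duration term pairs the stimuli, since a shared number marks a shared duration. Tests are two-sided, adjusted by Benjamini-Hochberg over all tested genes at a threshold of 0.05. Errors of changes are the absolute log2 change over the square root of F. Levels per length used GENCODE M21 exon lengths, and for Inhba the M21 gene ends later than the deposited one. Promoter sequences are RefSeq's (GRCm38.p6). The members and the lists were chosen with earlier results of these data known. All members are named, and for other genes up to the 3 largest called changes per list and comparison, with values of markers and overlapping genes where they touch a result. Alternatives were DESeq2's size factors and test (1.42.0), no filter, no duration term, IL-2 libraries as the reference, each duration left out, each part of the durations, and the compared groups alone. The script was tested on simulated counts. Some results on genes outside the members are not reported here.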

Additional observations from a re-analysis of the deposited data

Results flagged for a closer look

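In 4 of 108 sets of 4 libraries (1 gene in 1 group) a single library stood apart by more than Dixon's critical value for the gap over the range; chance gives about 1 in 20. Inhba with the combination at 24 h had 400 CPM, against 247 to 267 in the other 3 (ratio 0.869). Ltbp2 with TNF at 10 ng/ml at 24 h had 1.72 CPM against 0.294 to 0.442 (0.897), on 12 counts. Ltbp3 with IFNγ at 0.01 ng/ml at 2 h had 349 CPM against 297 to 305 (0.833). Tgfb2 with TGF-β at 2 h had 2.33 CPM against 0.918 to 1.08 (0.888). The 4 libraries of a group differ in duration, so a library apart from the rest is not a replicate apart from its group.

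In 3 cases the slope with time differed from that of unstimulated cells by the test of that difference, in log2 units per doubling of time: Ltbp4 with TGF-β at 0.44, Tgfb3 with TGF-β at -0.27 and Ltbp1 with IFNγ at 100 ng/ml at 0.21.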

How the results depend on the processing

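Of 32 calls, 10 held under every alternative that gave a value, and of 330 alternative values 234 kept their call, 96 lost it and 0 changed sign. The 7 calls from 2 h to 6 h and from 12 h to 24 h, contrasts chosen after seeing the data, are not among these and were not run under any alternative. Counts of called genes among the 8 that moved by more than 1.5 times were as follows. Without the duration term, that is without a replicate block pairing the stimuli by duration, the count was 0 for IFNγ at 1 ng/ml, 1 at 100 ng/ml, 1 for TGF-β, 0 and 1 for TNF at 1 and 10 ng/ml, and 1 and 0 for the combination against IFNγ and TNF. With no filter it was 3 for IFNγ at 1 ng/ml, 0 for TNF at 1 ng/ml, 1 for the combination against TNF, and 1 and 0 for the slopes of TGF-β and IFNγ. For IFNα1 it was 1 with DESeq2's size factors, with DESeq2's test, with IL-2 as the reference and within the 2 h and 6 h libraries, and 2 within those of 12 h and 24 h or with the compared groups alone. With IL-2 as the reference the slopes of TGF-β, TNF and the combination gave 1, 1 and 2. Within the 2 h and 6 h libraries IFNγ at 1 and 100 ng/ml gave 1 and 2, TNF at 1 and 10 ng/ml 0 and 1, and the combination against TNF 0. Within the 12 h and 24 h libraries TGF-β gave 4. With the compared groups alone TGF-β gave 1, TNF at 1 ng/ml 2 and the combination against TNF 1. Leaving out each duration in turn gave 0 to 1 for IFNα1, 0 to 4 for IFNγ at 1 ng/ml, 1 to 4 at 100 ng/ml, 1 to 3 for TGF-β, 0 to 1 and 1 to 3 for TNF at 1 and 10 ng/ml, 0 to 1 for non-additivity, 0 to 2 for the combination against TNF, and 0 to 2, 0 to 1 and 0 to 1 for the slopes of TGF-β, IFNγ and the combination. Fits on fewer libraries test fewer samples; the cause of the other moves was not tested. Slopes were not run on part of the durations or the compared groups alone, and the contrast of 24 h with 2 h gives no value without either. IL-2 as the reference leaves the combination contrasts as they are. The low counts of Tgfb2, Lrrc32 and Ltbp2 limit what these libraries can show.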
